A study of Mus musculus with 6 samples.

Results

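The serpins, the largest family of protease inhibitors in mammals, were followed in mouse lumbar dorsal root ganglia 3 days after a burn injury. The family was taken as every gene symbol in the count tables that starts with Serpin, leaving out 3 symbols that end in -ps, which gave 64 members of 38926 symbols. The letter after Serpin is the clade, a branch of the family tree. There were 25 members in clade A, 28 in clade B, 3 in clade E, 2 each in clades F and I, and 1 each in clades C, D, G and H. The 2 symbols Serpina4-ps1 and Serpinb1-ps1 were kept by the letter of that rule although they are named as pseudogenes.

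Dorsal root ganglia house the cell bodies of the sensory neurons of trunk and limbs, and they also hold satellite glia, Schwann cells, fibroblasts, vessels and immune cells. Stranded libraries of total RNA from whole ganglia of levels L3, L4 and L5 were read as single ends of 75 nucleotides, 3 libraries from burned mice and 3 from control mice. All 6 came from male wild-type C57BL/6 mice aged 6 to 8 weeks. The labels call the tissue neurons, but whole ganglia were extracted. The summed level of 6 neuronal markers was 9480 to 11700 CPM (read counts scaled by library size) in burn and 10500 to 14500 CPM in control libraries, and markers of satellite glia, Schwann cells, fibroblasts and immune cells were present as well. The title of burn library 3 has the letters IP in place of a number, which the labels do not explain, and the side of the ganglia, the site of the burn and the handling of the controls are not given. Whether each library is a different animal is not stated, so the p-values measure the spread between these libraries, which may be technical. In such bulk samples, fewer cells of a type and less RNA per cell cannot be told apart.

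A serpin presents a flexible stretch, the reactive centre loop, as bait to a protease. Cutting the loop springs the serpin into a new fold that traps the protease in a covalent complex, so each inhibitor molecule is used once, and the residues of the loop decide which proteases are caught. Clade A serpins are mostly secreted plasma proteins such as alpha-1-antitrypsin, and clade B serpins work mostly inside cells against granule and lysosomal proteases. The other clades hold inhibitors of coagulation, fibrinolysis and complement, together with members that inhibit nothing, such as the collagen chaperone Serpinh1. In sensory ganglia and nerve the family is best known for restraining the proteases of infiltrating leukocytes and of the plasminogen system.

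Reads counted in genes were 22023565, 30074469 and 70002671 in burn libraries 1, 2 and 3, against 35991111, 17273908 and 81968142 in control libraries 1, 2 and 3. Serpins took 0.1962%, 0.1954% and 0.1678% of these reads in the burn libraries, against 0.1902%, 0.1889% and 0.177% in the controls. The widest 95% Wilson interval among these shares was 0.1869 to 0.191% (control 2), which covers counting error only. The 3 genes Atf3, Gpr151 and Npy, known to be switched on in sensory neurons with damaged axons, were all higher in burn ganglia (log2 fold changes 3.37, 3.77 and 4.94, adjusted p 0.000387, 0.00915 and 0.0434 by edgeR's quasi-likelihood test). With limma-voom their adjusted p was 0.00121, 0.0543 and 0.206. They were picked with earlier results of these data known, so they are no independent check of the labels. Burn 3 and control 3 were the deepest libraries and had the highest mitochondrial shares, 5.44% and 4.41%, against 1.71 to 2.70% in the other 4. In 30.6% of all genes tested, the values of these 2 libraries did not overlap those of the other 4. Among the tested serpins this held for 5 of 30 (16.7%), with Serpini1, Serpine2 and Serpinb1b higher and Serpinf1 and Serping1 lower in the deeper pair, and values within the deeper pair and within the 4 shallower libraries are given beside several of the results.

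Most of the serpin signal in the ganglion came from few genes. Of the 64 members, 8 had no read in any library and 15 had 1 to 9 reads in all 6 together, whereas 16 had at least 1000 reads. Levels between genes are compared here as RPKM, which is CPM divided by exon length in kilobases (mean of 6 libraries). Serpinb6a, an intracellular inhibitor of cathepsin G, stood highest at 119 RPKM. It was followed by Serping1, the C1 inhibitor of complement, at 76.6 RPKM, Serpinh1, the collagen chaperone HSP47, at 72.2 RPKM, Serpina3n, a secreted inhibitor of leukocyte elastase and granzyme B, at 62.3 RPKM, and Serpinb1a, an intracellular inhibitor of neutrophil proteases, at 60.1 RPKM. Serpinf1, the secreted pigment epithelium-derived factor, had 50.7 RPKM and Serpina3g, an intracellular member of clade A known from mouse lymphocytes, had 48.0 RPKM. Serpini1 (neuroserpin), Serpind1 (heparin cofactor II) and Serpine2 (protease nexin-1) followed at 23.1, 12 and 10.2 RPKM. Clade B made up 36.1% of the summed serpin RPKM, clade A 21.1%, clade G 13.3%, clade H 12.6%, clade F 8.82%, clade I 4.08%, clade D 2.10% and clade E 1.94%.

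**Figure D1:**
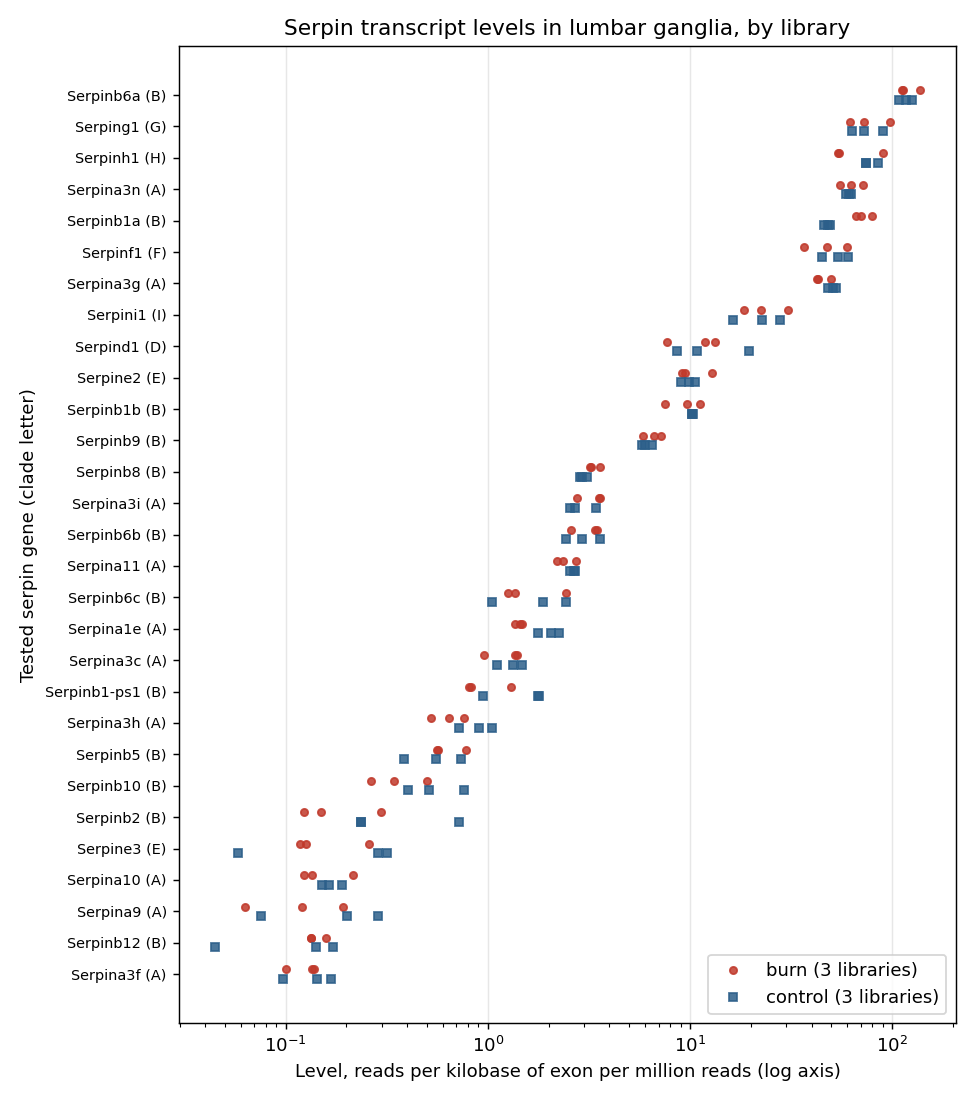
Levels of 29 tested serpin genes in each library, in RPKM (CPM per kilobase of exon) on a log axis, ordered by mean level, with the clade letter in brackets; circles are burn and squares control libraries. Levels ran from 119 RPKM for Serpinb6a (mean of 6 libraries) to 0.130 RPKM for Serpina3f, and the burn circles lie wholly to the right of the control squares in Serpinb1a and Serpinb8 and wholly to the left in Serpina1e.

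Some plasma serpins known from the liver had few or no reads in the ganglion, unlike Serping1, Serpina3n and Serpind1. Serpina6 (corticosteroid-binding globulin) and Serpina7 (thyroxine-binding globulin) had 0 reads in all 6 libraries, as did Serpini2, Serpinb3b, Serpinb3c, Serpinb9f, Serpinb9g and Serpina4-ps1. A count of 0 allows up to 3 reads, which is 0.0366 CPM in the deepest library and 0.174 CPM in the shallowest by their unscaled totals. Serpinc1, which encodes antithrombin, had 2, 2 and 4 reads in the burn libraries and 2, 2 and 4 in the controls. Serpinf2, which encodes alpha-2-antiplasmin, had 1, 2 and 5 reads after the burn, against 4, 0 and 5 in the controls. The summed level of 7 liver markers was low as well, at 1.44 to 1.77 CPM in burn and 1.39 to 3.39 CPM in control libraries.

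The summed serpin level of burn and control ganglia differed by less than the spread between libraries. The summed level of all 64 members was 1880 ± 83.4 CPM in burn ganglia and 1840 ± 29.1 CPM in controls (mean ± SD, n = 3 each). After the filter on low counts 30 members could be tested, 10 in clade A, 12 in clade B, 3 in clade E and 1 each in clades D, F, G, H and I. Of these, 13 had a positive log2 fold change of burn over control and 17 a negative value, with a median of -0.09, against 0.01 over all 17534 genes tested. The estimates of 23 of the 30 lay within 0.25 of 0 on the log2 scale. Among the 13 members with a mean of at least 10 CPM, 12 did so, with standard errors (SE) of 0.11 to 0.33.

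By edgeR's quasi-likelihood test, 0 of the 30 were higher and 0 lower at an adjusted p under 0.05, where 0.0228% of all genes tested were higher (4 genes) and 0% lower. At an unadjusted p under 0.05, Serpinb1a was higher and Serpina1e lower, against 2.04% and 0.924% of all genes. DESeq2, run as an alternative, called Serpinb1a higher and 0 members lower, against 0.132% higher and 0% lower of 21260 genes with an adjusted p. Among the tested members, the 3 burn values lay above all 3 control values in Serpinb1a and Serpinb8 and below them in Serpina1e. Over all genes tested the shares were 4.33% and 2.91%. With 3 such members of 30 (10%), against 7.24% of all genes in either direction, the share is near the background and is no result about the family. The 34 members under the filter had at most 75 reads in the 6 libraries together and a mean of at most 0.286 CPM, so only large changes in them could be detected at this depth. Without the filter, edgeR gave a p for 26 of the 34 and called 0, with 0 at an unadjusted p under 0.05, and DESeq2 gave an adjusted p for 11 and called 0.

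**Figure D2:**
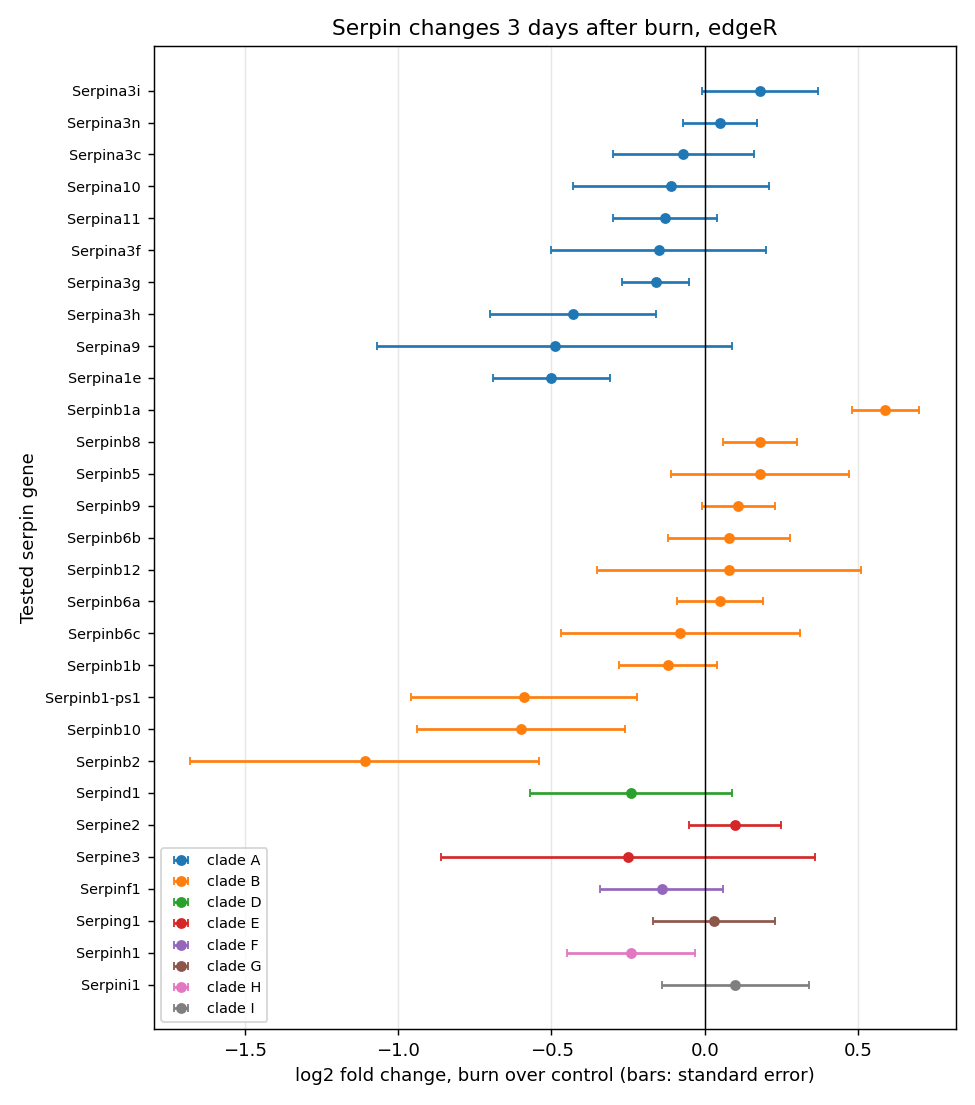
Log2 fold change of burn over control for 29 tested serpins, from edgeR, with bars of 1 standard error, grouped and coloured by clade. Serpinb1a, at 0.59, is the positive estimate farthest from 0 relative to its bar, and the low-count members Serpinb2, Serpinb10 and Serpinb1-ps1 give the negative estimates of -1.11, -0.60 and -0.59.

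Within clade B, the intracellular serpins, Serpinb1a was higher in every burn library than in every control library. It encodes an inhibitor of the neutrophil proteases elastase, cathepsin G and proteinase 3, and lies on chromosome 13 at 32842092 to 32851185, minus strand (GRCm38, GENCODE release 21). Its level was 162, 183 and 153 CPM in burn libraries 1, 2 and 3, against 114, 107 and 111 CPM in control libraries 1, 2 and 3. The lowest burn library was 153 CPM and the highest control library 114 CPM. The means were 166 ± 15.6 CPM after the burn and 111 ± 3.63 CPM in controls (SD, n = 3 each), a 1.5-fold difference (log2 fold change 0.59, SE 0.11). The unadjusted p of 0.00086 ranked 26 of 17534 and gave an adjusted p of 0.58 with edgeR. DESeq2 gave an adjusted p of 0.0163 and limma-voom 0.623, within a range of 0.00073 to 0.9999 over 22 alternatives. These leave out a block with crossed library numbers. They include DESeq2 fits chosen after seeing the data, among them the fit that gave 0.00073. An exact two-sided permutation test of the 6 values gave p = 0.1, the smallest that 3 against 3 libraries allow. Groups that do not overlap always give this value, so it adds nothing to the separation of the values.

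The call of Serpinb1a depended on the test, on which libraries entered it and on how they were paired. Its log2 fold change was 0.46 between burn 3 and control 3, and 0.66 over the 4 shallower libraries. Over the 22 alternatives it ran from 0.50 to 0.66, and an adjusted p under 0.05 was reached in 5, all with DESeq2. Of these 5, only DESeq2 over all libraries was planned. The others were DESeq2 fits chosen after seeing the data, as were all DESeq2 runs with 1 library left out. A further edgeR fit over libraries 1 and 2 of each group, blocked with burn 1 beside control 2 and burn 2 beside control 1, also called it (log2 fold change 0.66, adjusted p 0.000591); that pairing was chosen after seeing the data and comes from no label. Leaving out 1 library at a time, DESeq2 gave an adjusted p under 0.05 in 2 of 6 runs, those without burn 3 and without control 3, and missed it without burn 1, burn 2, control 1 or control 2.

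**Figure D3:**
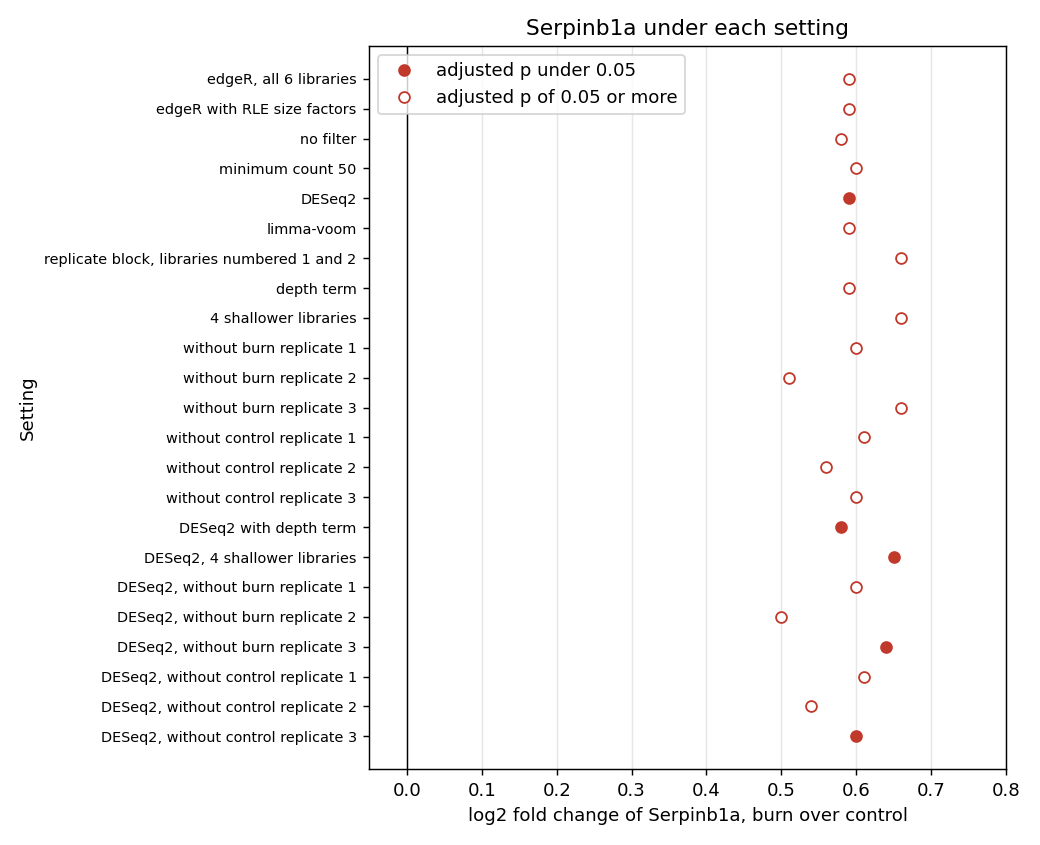
Log2 fold change of Serpinb1a, burn over control, under the main edgeR fit (top) and each of 22 alternatives, without the crossed block; filled circles have an adjusted p under 0.05 and open circles do not. All 23 values lie between 0.50 and 0.66, and the 5 filled circles are DESeq2 fits. Of these 5, only DESeq2 over all libraries was not chosen after seeing the data.

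The reads of Serpinb1a could be kept apart from those of its neighbouring copies. Its coding sequence was 90.4% identical to that of Serpinb1b and 89.9% to that of Serpinb1c, yet 0.3% of the 75-base stretches of its transcripts also occurred in another gene. The 60 coding bases with the most differences among the 3 copies, bases 485 to 544 of the coding sequence in each, are shown as an example. Reads from most other parts of the transcripts could be assigned as well. Capitals in Serpinb1a mark the 18 positions at which another copy differs, and capitals in the other copies mark bases that differ from Serpinb1a (GENCODE release 21 transcripts, GRCm38, chromosome 13).
Serpinb1a: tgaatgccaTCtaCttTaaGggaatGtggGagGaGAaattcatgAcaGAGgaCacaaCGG
Serpinb1b: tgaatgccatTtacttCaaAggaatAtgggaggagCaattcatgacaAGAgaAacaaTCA
Serpinb1c: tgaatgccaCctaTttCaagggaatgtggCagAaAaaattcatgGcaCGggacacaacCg
The values of the neighbouring copies follow, and the difference between copies was not tested. Serpinb1b had 14.5, 18.7 and 21.6 CPM after the burn and 19.6, 19.9 and 20 CPM in controls (log2 fold change -0.12, SE 0.16, edgeR adjusted p 0.9998). Its burn values lay on both sides of the controls. Serpinb1c, under the filter, had 3, 7 and 22 reads after the burn, against 15, 4 and 19 reads in controls. The pseudogene Serpinb1-ps1 had 11, 23 and 31 reads after the burn, against 38, 19 and 44 in controls.

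Markers of other cell types were read beside Serpinb1a. Of 8 spinal cord markers, among them the oligodendrocyte genes Mog, Mobp and Opalin, all 8 had positive log2 fold changes (median 1.41) and 7 had an unadjusted edgeR p under 0.05. Their summed level was 204, 122 and 286 CPM in burn libraries 1, 2 and 3, against 120, 121 and 65.4 CPM in the controls. Burn 2, with a spinal cord sum of 122 CPM close to those of controls 1 and 2, had the highest Serpinb1a level, 183 CPM. Burn 3, with the highest spinal cord sum, had the lowest Serpinb1a level of the burn libraries. Burn 1 and burn 3 were above every control both in the spinal cord sum and in Serpinb1a. The neutrophil markers, whose cells are rich in this inhibitor and its targets, had negative log2 fold changes in 6 of 6 (sum 698 to 1440 CPM in burn and 705 to 1680 CPM in control libraries), and the 5 macrophage markers found had positive values (sum 139 to 274 CPM in burn and 122 to 187 CPM in control libraries). No listed marker was at 0 in all libraries, and the part of these cell types in the Serpinb1a difference was not tested.

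**Figure D4:**
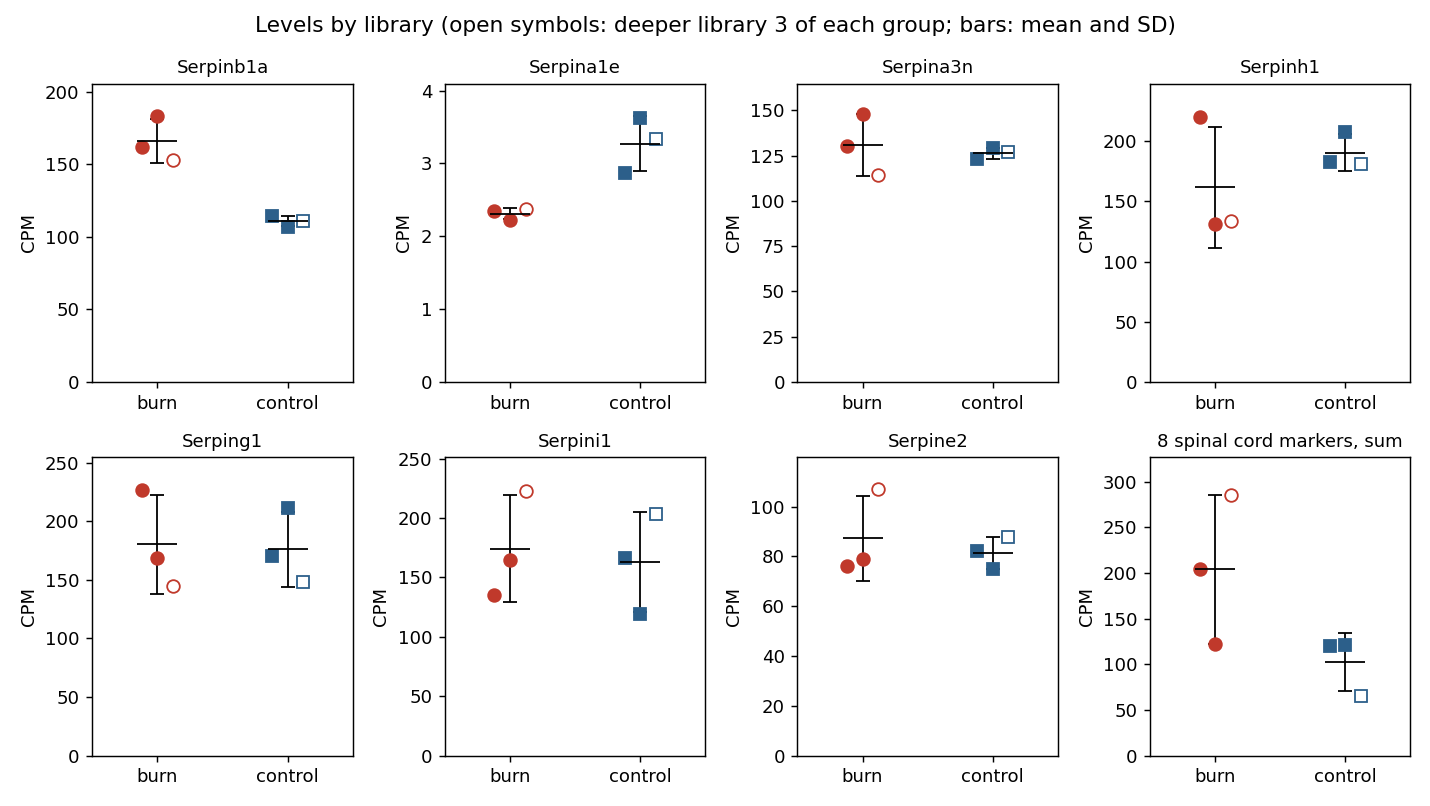
Scaled CPM in each library for 7 serpins and for the sum of 8 spinal cord markers, burn at left and control at right; filled symbols are libraries 1 and 2, open symbols the deeper library 3, and bars are the mean and SD of 3 libraries. The groups do not overlap in Serpinb1a (153 to 183 CPM after the burn, 107 to 114 CPM in controls) or Serpina1e (2.22 to 2.37 CPM after the burn, 2.87 to 3.62 CPM in controls) and overlap in the other 5 serpins.

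The serpin with the highest level, Serpinb6a, had 609, 745 and 606 CPM after the burn and 675, 583 and 641 CPM in controls (log2 fold change 0.05, SE 0.14). Burn 2 was the highest library and the other burn values lay among the controls. Exons of Serpinb6a overlap those of Nqo2, Ripk1 and 1110046J04Rik on the other strand and 22% of its 75-base stretches occur in them, so part of this count is uncertain because the labels do not say whether counting used the strand. Its relatives Serpinb6b and Serpinb6c averaged 7.12 ± 1.12 and 2.35 ± 0.911 CPM after the burn, against 6.77 ± 1.30 and 2.49 ± 0.971 CPM in controls (SD, n = 3 each), while Serpinb6d and Serpinb6e had 1 and 5 reads in all 6 libraries together.

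Serpinb9, which in mouse shields cytotoxic and bystander cells from granzyme B, had 23.3, 20.4 and 25.1 CPM after the burn and 22.7, 21 and 20.2 CPM in controls (log2 fold change 0.11, SE 0.12). The groups overlapped, with a log2 difference of 0.31 between burn 3 and control 3 and 0.01 over the 4 shallower libraries. Its 6 relatives Serpinb9b to Serpinb9g had 0 to 6 reads per library. Serpinb8, which inhibits furin in human, had 15.3, 17.3 and 15.7 CPM after the burn and 14.0, 14.9 and 13.7 CPM in controls. The burn values lay above the controls by a small amount (log2 fold change 0.18, SE 0.12, unadjusted p 0.171, adjusted p 0.9998 by edgeR).

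The remaining tested clade B genes were scarce. Serpinb2 (plasminogen activator inhibitor-2) had 8, 21 and 19 reads after the burn, against 62, 10 and 44 reads in controls, with the most in control 1 (log2 fold change -1.11, SE 0.57). Serpinb10, whose exons overlap those of Serpinb2 on the same strand, had 27, 53 and 61 reads after the burn, against 97, 32 and 112 reads in controls (log2 fold change -0.60, SE 0.34). The annotation lists it as a polymorphic pseudogene. Serpinb5 (maspin, which inhibits no known protease) and Serpinb12, both known from epithelia, averaged 1.75 ± 0.343 and 0.354 ± 0.0374 CPM after the burn, against 1.53 ± 0.482 and 0.298 ± 0.166 CPM in controls (SD, n = 3 each). Serpinb3a, Serpinb3d, Serpinb7, Serpinb11 and Serpinb13 were under the filter, with at most 23 reads in any library.

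The lists of granule and lysosomal genes that hold the proteases restrained by clade B serpins passed no test. Both lists were counted whole, and not every gene in them is such a target, Prf1 among those that are not. Of 10 tested leukocyte granule genes (12 listed), 3 had positive and 7 negative log2 fold changes with a median of -0.21, and 0 were called by edgeR. Prf1, which encodes the pore-forming perforin, had 0.442, 0.431 and 0.456 CPM after the burn and 0.246, 0.278 and 0.289 CPM in controls (log2 fold change 0.70, SE 0.30, unadjusted p 0.0466, adjusted p 0.9998 by edgeR), from 5 to 30 reads per library. Elane, Prtn3 and Ctsg, the targets of Serpinb1a, averaged 8.69 ± 4.07, 9.10 ± 3.88 and 6.83 ± 2.99 CPM after the burn and 10.4 ± 4.34, 10.8 ± 3.88 and 8.13 ± 3.50 CPM in controls (SD, n = 3 each). Of 10 lysosomal cathepsins, 4 had positive and 6 negative values with a median of -0.06, and 0 were called. Ctsc, the activator of the granule proteases, had 72.6, 52.4 and 56.0 CPM after the burn and 53.3, 48.5 and 43.6 CPM in controls (log2 fold change 0.32, SE 0.15, unadjusted p 0.0704). Ctsf had 44.8, 45.0 and 44.2 CPM after the burn and 47.8, 54.5 and 49.5 CPM in controls, without overlap (log2 fold change -0.18, SE 0.10, unadjusted p 0.109).

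In clade A, the Serpina3 group carried nearly all of the reads. Serpina3n, at chromosome 12, 104406729 to 104414329, plus strand, is the main mouse counterpart of human alpha-1-antichymotrypsin, rises in the acute-phase response, and has been described in mouse ganglia after nerve injury as an inhibitor of leukocyte elastase. Its level was 130, 148 and 114 CPM after the burn, against 123, 129 and 127 CPM in controls. Burn 2 was the highest library, burn 1 was just above the highest control, and burn 3 was the lowest (log2 fold change 0.05, SE 0.12, edgeR adjusted p 0.9998). The log2 difference was -0.15 between burn 3 and control 3 and 0.16 over the 4 shallower libraries. Serpina3g had 91.1, 105 and 90.2 CPM after the burn and 107, 102 and 111 CPM in controls (log2 fold change -0.16, SE 0.11, unadjusted p 0.165). Burn 1 and burn 3 were below all controls, while burn 2 was not. Serpina3i had 7.95, 8.01 and 6.11 CPM after the burn and 7.67, 5.68 and 6.02 CPM in controls (log2 fold change 0.18, SE 0.19). Serpina3c and Serpina3f averaged 2.75 ± 0.543 and 0.287 ± 0.0479 CPM after the burn, against 2.89 ± 0.417 and 0.311 ± 0.0811 CPM in controls (SD, n = 3 each). Serpina3h, annotated as a transcribed pseudogene, had 17, 28 and 72 reads after the burn, against 38, 27 and 103 reads in controls (log2 fold change -0.43, SE 0.27).

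The 4 Serpina3 coding sequences compared were 84.2 to 91.0% identical in pairs, and 1.5% (Serpina3n) to 7.7% (Serpina3g) of their 75-base stretches were shared with another gene. Within the stretches aligned without a gap in any copy, the 60 coding bases that differ most among them are shown. They are shown because these close neighbours on chromosome 12 differed widely in level, though Serpina3n and Serpina3g did so less. They are bases 677 to 736 of 1257 in Serpina3n, 71 to 130 of 747 in Serpina3g, 647 to 706 of 1227 in Serpina3i and 647 to 706 of 1338 in Serpina3f. Capitals in Serpina3n mark the 25 positions at which another copy differs, and capitals in the others mark bases that differ from Serpina3n.
Serpina3n: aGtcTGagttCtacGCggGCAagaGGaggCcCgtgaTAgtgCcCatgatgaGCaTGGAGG
Serpina3g: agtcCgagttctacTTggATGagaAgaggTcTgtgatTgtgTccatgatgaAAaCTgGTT
Serpina3i: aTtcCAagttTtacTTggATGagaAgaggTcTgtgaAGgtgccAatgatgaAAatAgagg
Serpina3f: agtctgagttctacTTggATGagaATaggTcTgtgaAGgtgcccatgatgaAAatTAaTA
Serpina3n and Serpina3f stood at 62.3 and 0.130 RPKM (means of 6 libraries). The other members of the group, Serpina3a, Serpina3b, Serpina3j, Serpina3k and Serpina3m, were under the filter, with 0 to 10 reads per library. Serpina3b among them had 0, 2 and 3 reads after the burn, against 10, 2 and 7 reads in controls. On the CPM scale its burn values (0, 0.0662 and 0.0456) lay below all controls (0.273, 0.111 and 0.088), with an unadjusted DESeq2 p of 0.115.

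Among the tested serpins with negative estimates, the alpha-1-antitrypsin copy Serpina1e had the lowest unadjusted p. Alpha-1-antitrypsin, encoded in mouse by the Serpina1 copies, is the main plasma inhibitor of neutrophil elastase. The copies differ in the bases that encode the reactive centre loop, and which proteases Serpina1e catches was not tested. Of the copies Serpina1a to Serpina1e, reads fell almost wholly on Serpina1e (chromosome 12, 103946931 to 103958975, minus strand). It had 2.34, 2.22 and 2.37 CPM after the burn, from 53, 67 and 156 reads, and 2.87, 3.62 and 3.33 CPM in controls, from 105, 65 and 265 reads. The 3 burn values lay below all 3 control values. The means were 2.31 ± 0.0813 CPM after the burn and 3.27 ± 0.378 CPM in controls (SD, n = 3 each; log2 fold change -0.50, SE 0.19, unadjusted p 0.0313, adjusted p 0.9998 by edgeR). The log2 difference was -0.47 between burn 3 and control 3 and -0.48 over the 4 shallower libraries. An exact two-sided permutation test gave p = 0.1, the smallest possible, which follows from the lack of overlap and is no further support. Liver markers were low throughout, with sums of 1.77, 1.66 and 1.44 CPM after the burn and 1.39, 3.39 and 1.51 CPM in controls. Control 2 had both the highest liver sum and the most Serpina1e, while the liver sums of control 1 and control 3 did not exceed the burn range. The part of liver transcripts in this difference was not tested.

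Serpina1a, Serpina1b, Serpina1c and Serpina1d had 0 to 3 reads per library. Their coding sequences were 96.3 to 98.5% identical in pairs within the set of 5. Of the 75-base stretches, 49.3% in Serpina1a, 19.0% in Serpina1b, 73.6% in Serpina1c, 37.1% in Serpina1d and 19.7% in Serpina1e also occurred in another gene. Alignments that were not unique were tallied apart in the files and added to no gene. The most different 60 coding bases lie in the part that encodes the reactive centre loop, which is why they are shown. They are bases 1101 to 1160 of 1242 in 4 of the copies and 1170 to 1229 of 1311 in Serpina1a. Capitals in Serpina1e mark the 18 positions at which another copy differs, and capitals in the others mark bases that differ from Serpina1e, 12 in Serpina1a, 11 in Serpina1b, 12 in Serpina1c and 10 in Serpina1d.
Serpina1e: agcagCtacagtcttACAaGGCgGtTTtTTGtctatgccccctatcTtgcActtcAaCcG
Serpina1a: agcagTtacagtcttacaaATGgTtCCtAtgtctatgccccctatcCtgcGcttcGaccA
Serpina1b: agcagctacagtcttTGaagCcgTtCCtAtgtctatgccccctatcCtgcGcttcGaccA
Serpina1c: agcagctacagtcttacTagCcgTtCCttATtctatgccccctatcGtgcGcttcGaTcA
Serpina1d: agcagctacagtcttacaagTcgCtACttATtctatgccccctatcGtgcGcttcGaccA
The remaining clade A genes were scarce. Serpina11 averaged 3.97 ± 0.442 CPM after the burn and 4.33 ± 0.137 CPM in controls (SD, n = 3 each), and its exons overlap Gm28577 on the same strand, with 34.2% of its 75-base stretches shared. Serpina9 (centerin, known from germinal centre B cells) and Serpina10 (protein Z-dependent inhibitor of factor X) had at most 1.06 CPM in any library. Serpina12 (vaspin), Serpina5 (protein C inhibitor) and Serpina1f had at most 26 reads in any library.

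Genes of the acute-phase and interleukin-6 response, which drives Serpina3n in other tissues, passed no test. Of 14 tested (16 listed), 11 had positive and 3 negative log2 fold changes with a median of 0.08, and 0 were called. Il6st, the shared receptor subunit gp130, had 790, 707 and 771 CPM after the burn and 572, 653 and 601 CPM in controls, without overlap (log2 fold change 0.31, SE 0.12, unadjusted p 0.0346, adjusted p 0.9998 by edgeR). Stat3, which acts downstream of it, had 353, 377 and 317 CPM after the burn and 324, 331 and 377 CPM in controls.

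Serpins that restrain thrombin or the plasminogen activators include members of clades C, D and E. Serpind1, heparin cofactor II, which inhibits thrombin, had 26.1, 16.9 and 29.1 CPM after the burn and 23.8, 42.8 and 18.9 CPM in controls. The libraries varied by 2.54-fold, and the groups overlapped (log2 fold change -0.24, SE 0.33). The direction differed between depths, with a log2 difference of 0.62 between burn 3 and control 3 and -0.61 over the 4 shallower libraries (unadjusted edgeR p 0.14). A block over libraries 1 and 2 of each group with crossed numbers called it lower (-0.59, edgeR adjusted p 0.00496). That pairing was chosen after seeing the data and comes from no label. Over all genes it called 103 higher and 310 lower, against 4 and 0 in the main edgeR fit. In the main fit the unadjusted edgeR p of Serpind1 was 0.493. Serpine2, protease nexin-1, a thrombin and urokinase inhibitor released by glia, had 76.1, 78.8 and 107 CPM after the burn and 82.2, 74.8 and 87.6 CPM in controls (log2 fold change 0.10, SE 0.15). Burn 3 and control 3 were its highest libraries, and over the 4 shallower libraries the value was -0.01. Serpine3 had 4, 5 and 24 reads after the burn, against 3, 8 and 32 reads in controls, and its exons overlap Ints6 on the other strand.

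Their targets and partners passed no test either. Of 7 tested plasminogen activation genes (10 listed), 4 had positive and 3 negative values with a median of 0.03. Plaur, the urokinase receptor, had 8.92, 9.97 and 6.21 CPM after the burn and 7.10, 7.46 and 6.55 CPM in controls (log2 fold change 0.25, SE 0.20). S100a10, a plasminogen receptor abundant in sensory neurons, had 489, 536 and 450 CPM after the burn and 451, 450 and 445 CPM in controls (log2 fold change 0.13, SE 0.12). Plasminogen itself, Plg, had 1 to 7 reads per library. Of 12 tested coagulation genes (16 listed), 3 had positive and 9 negative values with a median of -0.12. Procr, the endothelial protein C receptor, had 5.21, 5 and 5.86 CPM after the burn and 3.03, 5.12 and 3.57 CPM in controls (log2 fold change 0.47, SE 0.23, unadjusted p 0.0732). F2rl1, the protease-activated receptor 2 of nociceptors, had 2, 10 and 28 reads after the burn, against 23, 9 and 40 reads in controls, and on the CPM scale its burn values lay below all controls (log2 fold change -0.82, SE 0.45, unadjusted p 0.111).

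In clade G, Serping1 encodes the C1 inhibitor, which blocks the first proteases of the classical complement pathway and plasma kallikrein. It had 227, 169 and 145 CPM after the burn and 170, 211 and 148 CPM in controls (log2 fold change 0.03, SE 0.20). The groups overlapped throughout. The complement list holds proteases it blocks, such as C1ra and Masp1, and other components of the pathway that it does not. All 7 of 7 tested (9 listed) had positive log2 fold changes, with a median of 0.30, and 0 were called by edgeR. C4b, which encodes complement C4, had 55.7, 42.3 and 59.5 CPM after the burn and 32.8, 41.6 and 37.9 CPM in controls, without overlap (log2 fold change 0.49, SE 0.16, unadjusted p 0.0149, adjusted p 0.9998 by edgeR). C1qa, C1qb and C1qc are made by macrophages, whose 5 tested markers also all had positive values with a median of 0.33. All 8 spinal cord markers had positive values too, with a median of 1.41. The part of macrophages and of spinal cord tissue in the complement values was not tested.

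Serpinf1, of clade F, encodes pigment epithelium-derived factor, a secreted serpin without inhibitory activity that supports neurons and limits vessel growth. It had 142, 113 and 86.3 CPM after the burn and 127, 143 and 106 CPM in controls (log2 fold change -0.14, SE 0.20). Burn 3 was the lowest library and control 3 the next.

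Serpinh1, of clade H, is an endoplasmic reticulum chaperone that folds procollagen. It had 220, 131 and 134 CPM after the burn and 183, 208 and 181 CPM in controls. Burn 1 was the highest of all libraries, and burn 2 and burn 3 were the lowest (log2 fold change -0.24, SE 0.21, edgeR adjusted p 0.9998). Without burn 1 the value was -0.52 (unadjusted p 0.00764, adjusted p 0.9996 by edgeR), and without burn 2 or without burn 3 it was -0.11. Of 12 collagen genes and procollagen-processing partners, 11 had negative values with a median of -0.36, and 0 were called. Col1a1 had 1980, 956 and 642 CPM after the burn and 2440, 3020 and 1270 CPM in controls (log2 fold change -0.91, SE 0.47, unadjusted p 0.0905). Col1a2 had 1760, 938 and 875 CPM after the burn and 2050, 2420 and 1260 CPM in controls (log2 fold change -0.68, SE 0.34, unadjusted p 0.0797). The summed level of 8 fibroblast and meningeal markers, which include Col1a1 and Col1a2, was 6020, 3350 and 3230 CPM after the burn and 6370, 7820 and 3770 CPM in controls. Of the 8, 4 had negative values, Col1a1 and Col1a2 among them, and 4 positive values, among them Dcn (0.36), Lum (0.41) and Pdgfra (0.16). Their part in the Serpinh1 values was not tested.

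Serpini1, of clade I, encodes neuroserpin, an inhibitor of tissue plasminogen activator secreted by neurons. It had 135, 165 and 223 CPM after the burn and 166, 119 and 203 CPM in controls (log2 fold change 0.10, SE 0.24). Burn 3 and control 3 were its highest libraries. Its target Plat had 39.8, 29.1 and 27.2 CPM after the burn and 30.2, 41.7 and 28.3 CPM in controls.

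Serpin-protease complexes are cleared by receptors of the low-density lipoprotein receptor family. Such receptors and the gene of a receptor-associated protein, Lrpap1, made up a list of 7, all tested. Of these, 5 had positive and 2 negative values with a median of 0.08, and 0 were called. Lrpap1, which is no receptor, was among the negative ones (-0.15). Lrp8 had 31.3, 33.2 and 35.1 CPM after the burn and 26.5, 28.9 and 30.9 CPM in controls, without overlap (log2 fold change 0.21, SE 0.11, unadjusted p 0.0997), and Sorl1 had 409, 476 and 459 CPM after the burn and 347, 433 and 390 CPM in controls (log2 fold change 0.20, SE 0.13). Protease inhibitors of other families were not called either. Of 17 tested (19 listed), 8 had positive and 9 negative values with a median of -0.09, and 0 were called. Spock1 had 63.7, 66.6 and 76.6 CPM after the burn and 49.9, 63.4 and 57.7 CPM in controls, without overlap (log2 fold change 0.28, SE 0.13, unadjusted p 0.0653). Itih3 had 3.53, 3.31 and 6.66 CPM after the burn and 2.68, 3.95 and 1.62 CPM in controls (log2 fold change 0.76, SE 0.40, unadjusted p 0.0953), with a log2 difference of 1.97 between burn 3 and control 3 and 0.08 over the 4 shallower libraries. Over these 9 lists of targets, partners and other inhibitors, edgeR, DESeq2 and limma-voom called 0 genes, and edgeR's unadjusted p was under 0.05 for 3 of 95 genes tested, Prf1, C4b and Il6st. That share, 3.16%, is near the 2.96% of all genes tested. Each of the 9 lists held at most 1 gene without overlap between the groups, where 7.24% of all genes tested had none. The genes named above as without overlap are therefore no result about the lists.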

How the data were processed

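The deposited files hold raw read counts for each gene symbol, 1 table per library. Per the submitters' processing notes, STAR, SAMtools and HTSeq were used with mm10 (GRCm38); no version, annotation release or strand setting is stated. The 5 tally lines of each table, 49.18 to 56.22% of entries, were left out. Within groups, pairs of libraries differed by more than counting error (43.6 to 203 for chi-square over its degrees of freedom), so none was treated as a repeat deposit of another.

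Counts were scaled by TMM and tested with edgeR 4.0.16 in R 4.3.3 (filterByExpr, minimum count 10 and total 15, 17534 genes; glmQLFit with robust set, glmQLFTest, two-sided, Benjamini-Hochberg over all genes). The SE is the log2 fold change divided by the root of F. DESeq2 1.42.0 and limma 3.58.1 (voom) were alternatives. The edgeR fit was tested on simulated counts, and no such test is given for DESeq2 or limma-voom. Depth was 17273908 to 81968142 reads, and intervals cover counting error only. RPKM used the union of exons of GENCODE mouse release 21, in which all 64 members were found. Coding sequences of its transcripts were aligned with MAFFT 7.526, in place of the planned protein sequences.

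Named members were those called by edgeR or DESeq2, those with an unadjusted p under 0.05, the 3 with the highest CPM in each clade, and Serpina3n, Serpine2, Serpini1, Serpinh1, Serping1, Serpinf1, Serpinb1a and Serpind1. From each list of other genes, called genes, those with an unadjusted p under 0.05, or else the 2 with the lowest p were named. Others, such as Serpinb8, Serpinb2, Elane and Stat3, were chosen after their values were seen. 1 tested member is counted in the totals but not reported here. Members and lists were chosen with earlier results of these data known. Figures were drawn with matplotlib 3.10.9.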

Additional observations from a re-analysis of the deposited data

How the results depend on the processing

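The serpin result, 0 members called, depended on the test. Serpinb1a, 1 member, was called higher with DESeq2 and, in fits chosen after seeing the data, with DESeq2 plus a depth term, DESeq2 on the 4 shallower libraries, and DESeq2 without burn 3 or without control 3 (1 in each). DESeq2 called 0 serpins without burn 1, burn 2, control 1 or control 2, and the cause was not tested. Over all genes, the 4 called higher became 14 without a filter, 2 with a minimum count of 50, 28 with DESeq2, 17 with a depth term, 11 in the 4 shallower libraries and 7 at an adjusted p under 0.1. Genes called lower were 21 with the depth term and 4 in the 4 shallower libraries. Leaving out 1 library gave 1 to 6 genes called higher, with 1 each without burn 2, control 1, control 2 or control 3. The median of the tested serpins, -0.094, was 0.053 with a minimum count of 50, which tests fewer genes, and ran from -0.087 (without control 2) to 0.007 (without control 1) when 1 library was left out.

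Of the 14 named members, 6 kept their sign under every alternative, Serpina1e, Serpina3g, Serpina3i, Serpinb1a, Serpinb9 and Serpinh1. The others changed sign with 1 library left out, all without passing a threshold. Their ranges over these runs were -0.05 (without burn 2) to 0.15 for Serpina3n, -0.06 (without burn 2) to 0.11 for Serpinb6a, which was -0.01 without control 2, -0.45 to 0.17 (without control 2) for Serpind1, -0.06 (without burn 3) to 0.19 for Serpine2, -0.82 to 0.23 (without control 3) for Serpine3, -0.33 to 0.03 (without burn 3) for Serpinf1, -0.17 (without burn 1) to 0.18 for Serping1, which was -0.07 without control 3, and -0.11 (without burn 3) to 0.29 for Serpini1, which was -0.09 without control 2. In the 4 shallower libraries Serpine2 was -0.01.

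Titles number burn 1, burn 2 and the 3 controls. A replicate block of the libraries numbered 1 and 2 gave 4 genes called higher, 0 lower and 0 serpins, with 0 for Serpine2. The deviations of same-numbered libraries ran opposite (correlation -0.385 over genes), and a block with the numbers crossed, added after seeing the data, called 103 genes higher and 310 lower, with 1 serpin in each direction, Serpinb1a higher and Serpind1 lower. Of the 34 members under the filter, 0 were called by DESeq2 or by edgeR without a filter, and at these depths only large changes in them could be detected.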
